A study of Mus musculus with 12 samples.

Results

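Cells that divide copy their DNA once and then separate the copies by mitosis, and each step needs its own set of proteins. The genes described here are 40 such genes, chosen by symbol: 26 that act in mitosis, such as the kinases, kinesins and cyclins A and B, and 14 that act in DNA replication, such as the MCM helicase and cyclin E. All 40 symbols were found among the 28686 in the deposited count table, and all 40 were among the 18459 genes kept for testing, whose mean count over the mice was 5 or more. RNA was taken at P6 from cochleae of 6 *Sox2CreER/+ Jag1fl/fl* mutants and 6 *Sox2+/+* littermate controls. The labels give the tissue as cochlea, and the design text as the sensory epithelium. Pups of both groups were given tamoxifen at P0 and P1, and the labels give the strain as C57BL/6;129SV for each mouse. The study's methods instead name C57bl6/J as the background of the CreER allele and FVB/n as that of the floxed allele, and the difference was not resolved here. Tamoxifen activates CreER, a recombinase expressed from the *Sox2* locus in supporting cells, which removes the floxed part of *Jag1*, a ligand of the Notch receptors. According to the study's methods the *Sox2+/+* mice carried *Jag1+/fl* or *Jag1fl/fl* and no CreER, so that the *Sox2* locus differed between the groups too. The libraries of a genotype are described as biological replicates in the design text.

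In the cell cycle, the MCM proteins, *Cdc6* and *Cdt1* are loaded onto DNA before S phase, and cyclin E with its kinase starts replication, in which *Pcna* clamps the polymerase to its template. Transcripts of these genes are mostly made under E2F factors. Genes of mitosis are switched on later, through the DREAM and MuvB complexes, B-Myb and FoxM1, which read a short promoter element named the cell cycle genes homology region (CHR) beside CCAAT boxes bound by NF-Y. In the cochlea, hair cells and supporting cells leave the cell cycle before birth, whereas mesenchyme, glia, vessels and blood cells still divide in the first postnatal week.

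The promoter sequences show what the genes of each phase share apart from their names. Sequences of 250 bases before to 50 after the start were taken from a set of RefSeq promoters on GRCm38.p6. The set used here holds 32 of the 40 genes. The CHR was searched as TTTGAA and as the variant spelling TTTAAA, and the NF-Y box as CCAAT. The E2F core was searched as TTGGCGC and as the variant spelling TTCGCGC, with TTCCCGC as another spelling and TTGCCGC as the last. Both strands were read, and overlapping matches were all counted. Capitals mark the matches, which on the minus strand of a sequence appear as the reverse complement. Of the mitosis genes, *Ccnb2* (chr9:70421505-70421804, minus strand) and *Top2a* (chr11:99024140-99024439, minus strand) are shown. Of the replication genes, *Mcm5* (chr8:75109259-75109558, plus strand) and *Mcm6* (chr1:128359656-128359955, minus strand) are shown. These are examples rich in matches. By contrast, *Mad2l1* and *Nusap1* held no match, and *Pcna*, *Tyms* and *Ccne1* held no E2F core. *Mcm2* (chr6:88898731-88899030, minus strand) is shown because it had the smallest p-value of the 40 genes between the genotypes.
Ccnb2: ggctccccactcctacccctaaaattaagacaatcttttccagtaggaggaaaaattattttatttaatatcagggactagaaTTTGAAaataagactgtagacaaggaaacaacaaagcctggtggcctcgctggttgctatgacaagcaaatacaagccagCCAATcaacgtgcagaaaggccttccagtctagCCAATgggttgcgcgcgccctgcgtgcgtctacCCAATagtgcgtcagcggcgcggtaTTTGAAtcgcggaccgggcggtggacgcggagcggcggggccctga
Top2a: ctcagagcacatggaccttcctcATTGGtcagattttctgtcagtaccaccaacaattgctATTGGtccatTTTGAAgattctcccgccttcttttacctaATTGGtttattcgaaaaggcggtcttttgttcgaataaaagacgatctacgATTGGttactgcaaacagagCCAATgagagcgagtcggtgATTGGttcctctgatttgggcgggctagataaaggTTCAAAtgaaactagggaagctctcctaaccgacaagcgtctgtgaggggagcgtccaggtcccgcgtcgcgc
Mcm5: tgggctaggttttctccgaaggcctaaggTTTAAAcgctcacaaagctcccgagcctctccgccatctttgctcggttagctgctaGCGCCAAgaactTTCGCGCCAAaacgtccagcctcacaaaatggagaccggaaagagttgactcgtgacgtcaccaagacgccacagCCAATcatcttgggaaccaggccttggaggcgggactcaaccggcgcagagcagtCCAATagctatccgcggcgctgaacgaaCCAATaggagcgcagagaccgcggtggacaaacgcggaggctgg
Mcm6: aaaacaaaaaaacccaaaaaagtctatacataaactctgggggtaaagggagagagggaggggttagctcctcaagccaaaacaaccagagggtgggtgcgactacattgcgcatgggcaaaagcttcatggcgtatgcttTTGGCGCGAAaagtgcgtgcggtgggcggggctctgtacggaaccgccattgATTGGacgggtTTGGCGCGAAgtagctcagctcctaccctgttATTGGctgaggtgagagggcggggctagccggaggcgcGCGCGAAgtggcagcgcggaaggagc
Mcm2: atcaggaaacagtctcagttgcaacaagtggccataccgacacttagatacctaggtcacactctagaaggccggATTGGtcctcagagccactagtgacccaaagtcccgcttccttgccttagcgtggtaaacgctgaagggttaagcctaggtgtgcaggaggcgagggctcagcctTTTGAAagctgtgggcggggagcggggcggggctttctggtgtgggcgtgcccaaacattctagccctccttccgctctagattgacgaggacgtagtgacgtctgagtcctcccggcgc

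*Ccnb2* held 3 CCAAT boxes and 2 CHR matches, the latter at 164 bases before and 7 bases after the start. *Top2a* held 6 CCAAT boxes and 2 CHR matches, and neither of these genes held an E2F core. *Mcm6* held 5 E2F core matches, 4 of them in 2 overlapping pairs, and 2 CCAAT boxes but no CHR match. *Mcm5* held all 3 elements, whereas *Mcm2* held 1 CHR match and 1 CCAAT box and none of the 4 E2F letter strings searched. Over the mitosis genes with a promoter, 18 of 21 (85.7%) held a CHR match, against 4 of 11 replication genes (36.4%) and 30.6% of all 27025 genes with a promoter. An E2F core was found in 7 of 11 replication genes (63.6%), in 3 of 21 mitosis genes (14.3%) and in 10.9% of all genes. In a further list of mitosis genes it was found in 12 of 39 (30.8%). A CHR match and a CCAAT box occurred together in 16 of 21 mitosis genes (76.2%) and 3 of 11 replication genes (27.3%), against 12.2% of all genes. These are letter matches, and binding was not measured.

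**Figure D1:**
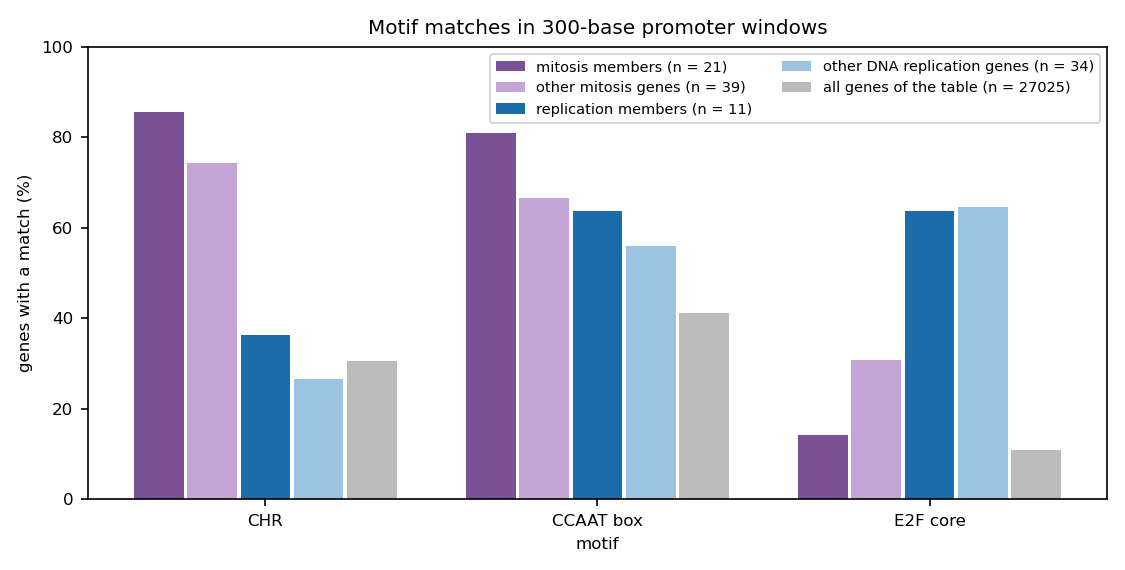
Share of genes (%, vertical axis) whose 300-base RefSeq promoter holds a CHR, CCAAT box or E2F core match, for mitosis and replication genes described here (members), for 2 further lists of such genes and for all genes. CHR matches were most frequent in the mitosis lists (85.7% and 74.4%), and E2F core matches in the replication lists (63.6% and 64.7%). E2F core matches were found in 14.3% and 30.8% of the mitosis lists.

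Total counts were 28498549 to 34430252 in the control libraries and 31899265 to 36134983 in the mutant libraries. Levels are given in CPM, which are counts scaled by the TMM factor and the library's total over tested genes, and a fold change is the level in mutants over that in controls. The 40 genes had between 51 reads (*Cdc6*) and 1396 reads (*Pcna*) in a library. *Jag1*, the gene deleted in the mutants, lay between 83.0 and 118 CPM in controls and between 24.2 and 42.9 CPM in mutants, and its log2 fold change was -1.48 (SE 0.13, edgeR adjusted p = 0.000258). The *Jag1* values therefore matched the labels in each of the 12 libraries. Genes of mesenchyme, such as *Col3a1*, summed to between 9720 and 11865 CPM in controls, against 418 to 477 CPM for hair cell markers, so the RNA came from tissue well beyond the sensory cells. In such a bulk sample, fewer dividing cells and less RNA of these genes per cell cannot be told apart.

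No difference between mutants and controls passed the test in any of the 40 mitosis and replication genes, and the mutant level of each lay between 0.843 (*Ccne1*) and 1.16 (*Ccne2*) of the control level. None of the 40 passed an adjusted p of 0.05 in edgeR's quasi-likelihood test, which called 35 of all 18459 genes (0.190%). For edgeR, none of 40 is thus near the share over all genes. None passed with DESeq2, which called 619 of the 18459 genes, or with limma-voom, which called 19. At an unadjusted p under 0.05 there were 2 of the 40 genes (5%), *Mcm2* and *Ccne1*, both lower in mutants, against 10.6% of all genes in either direction and 4.04% lower in mutants. The share of the 40 genes at that threshold was thus below the background in either direction and near the background of lower genes. In none of the 40 did the 6 mutants and 6 controls separate without overlap, which 0.997% of all genes did. The median log2 fold change was -0.05 over the 40 genes and 0.00297 over all genes, and 26 of the 40 (65.0%) were below 0, against 49.1% of all genes. This median was -0.10 without control 1, -0.08 without mutant 3, -0.02 without control 4 and -0.02 without mutant 4, and 23 to 32 genes were below 0 when 1 mouse was left out. The count at an unadjusted p under 0.05 was 4 without control 1 (*Mcm5* and *Kif23* were added, against 11.2% of all genes). It was 1, *Mcm2*, without control 5, mutant 2, mutant 5 or mutant 6, against 8.39% to 10.1% of all genes. Without control 1 the groups separated in 1 gene (*Kif23*), and without mutant 3 in 2 genes (*Ccne1* and *Mcm2*), where the same splits separated 1.89% and 1.65% of all genes.

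**Figure D2:**
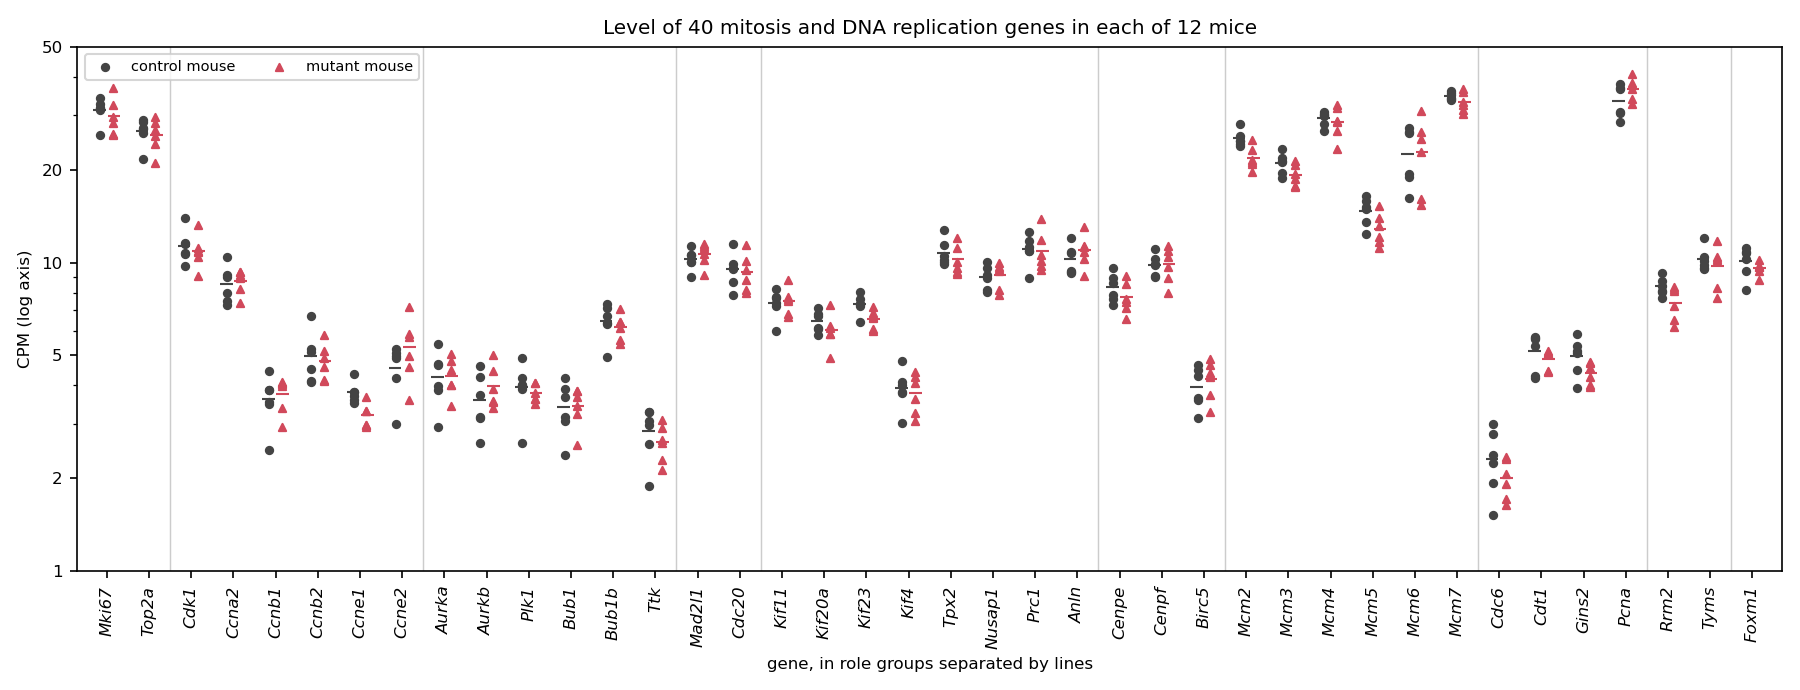
Level in CPM (vertical log axis) of each of the 40 genes in each mouse, with controls as circles, mutants as triangles and the group mean as a short line. Controls and mutants overlapped in all 40 genes, from Cdc6 at 1.52 to 2.99 CPM in controls to Pcna at 28.6 to 37.9 CPM.

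The 95% intervals show which differences these data leave room for. The interval lay within 0.5 of 0 on the log2 scale for 38 of the 40 genes and within 1 for all 40. The lowest bound of any gene was -0.57 (*Cdc6*) and the highest was 0.58 (*Ccne2*). Both of these genes were among those with the fewest reads or the widest spread. The spread between mice of a genotype was below the median of all genes in 28 of the 40, with a median SD of 0.166 against 0.202 on the log2 scale.

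**Figure D3:**
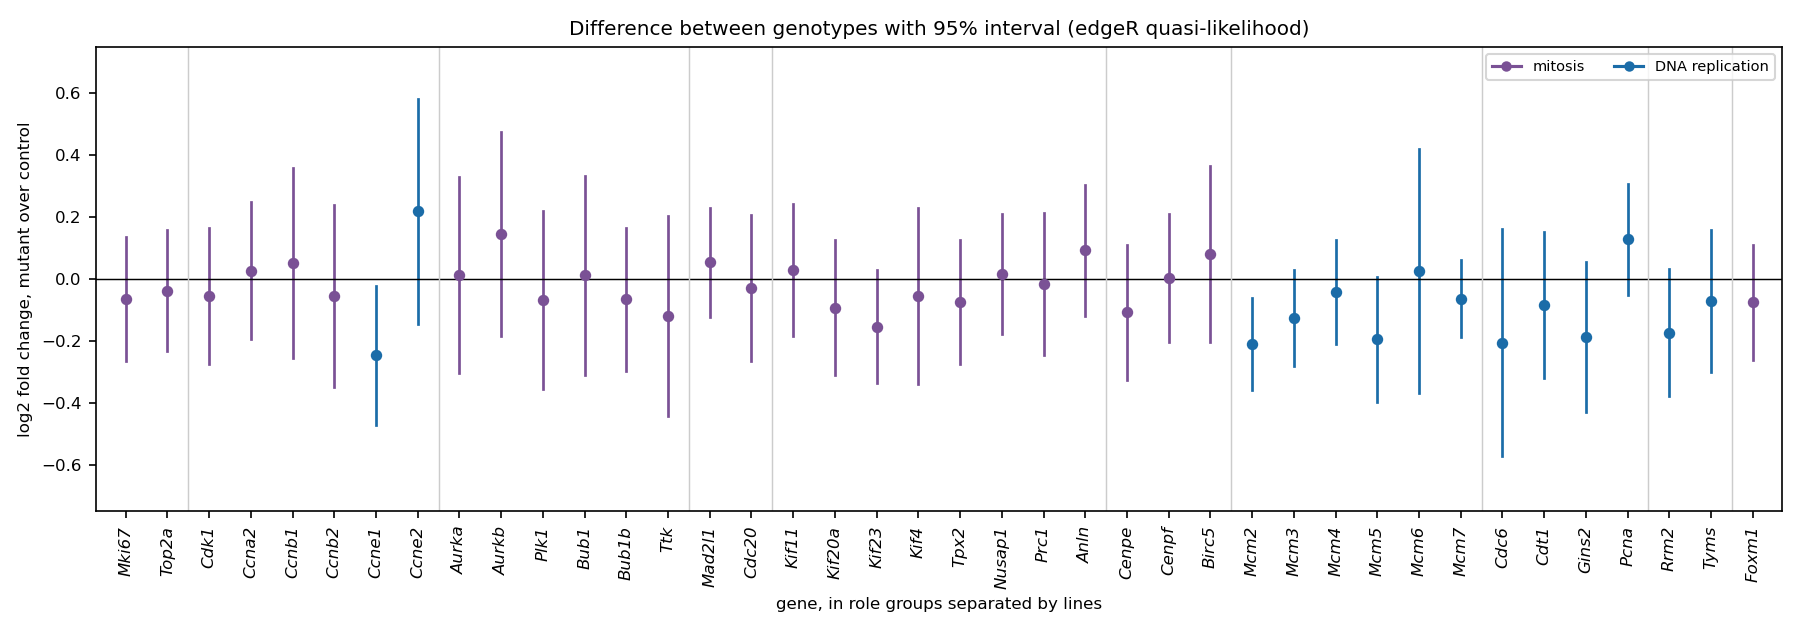
Log2 fold change (mutant over control, vertical axis) of the 40 genes with its 95% interval from edgeR, with mitosis genes in purple and replication genes in blue. The intervals of Mcm2 and Ccne1 alone exclude 0, and the point estimates lie between -0.25 and 0.22.

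The 6 MCM genes encode the ring that unwinds DNA at the replication fork. *Mcm2*, on chr6:88883474-88898780 (minus strand), lay between 23.9 and 28.2 CPM in controls, with a median of 24.8 CPM, and between 19.7 and 24.9 CPM in mutants, with a median of 21.3 CPM. Of the mutants, 5 lay below the lowest control, and mutant 3 lay within the control range. The level of *Mcm2* in mutants was 0.865 of that in controls (95% interval 0.781 to 0.959), a log2 fold change of -0.21 (SE 0.07). Its unadjusted p was 0.00900, its exact two-sided permutation p was 0.0108, and its edgeR adjusted p was 0.212. Over the alternative settings the adjusted p of *Mcm2* lay between 0.10 with DESeq2 and 0.435 with edgeR without control 4. The smallest p that the permutation of 6 mice against 6 allows is 0.00216, and 40 genes were tested in this way.

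*Mcm5* lay between 12.4 and 16.5 CPM in controls (median 15.04) and between 11.2 and 15.2 CPM in mutants (median 12.6). The groups overlapped, with 1 mutant above the control median, and the log2 fold change of -0.20 (SE 0.09) had an edgeR adjusted p of 0.493. *Mcm3* lay between 18.8 and 23.4 CPM in controls (median 21.3) and between 17.6 and 21.3 CPM in mutants (median 19.1), with a log2 fold change of -0.13 (SE 0.07, edgeR adjusted p = 0.620). All 6 mutants lay below the control median of *Mcm3*, although the ranges overlapped. *Mcm7* (-0.06), *Mcm4* (-0.04) and *Mcm6* (0.03) had log2 fold changes nearer to 0. *Mcm7* had the narrowest spread of the 40 genes among controls, from 33.6 to 35.9 CPM, a coefficient of variation of 2.61%. *Mcm7* shares 321 exonic bases with *Ap4m1* and 64 with *Cops6* on the opposite strand, and the strand setting of the counting is not given in the sources used here.

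Among the licensing and fork genes, *Cdc6* and *Cdt1* load the MCM ring, *Gins2* is part of the active helicase and *Pcna* is the sliding clamp. *Gins2* lay between 3.92 and 5.86 CPM in controls (median 5.13) and between 3.94 and 4.76 CPM in mutants (median 4.42). Its log2 fold change was -0.19 (SE 0.11, edgeR adjusted p = 0.645), and 2758 of its exonic bases overlap *Gse1* on the opposite strand. All 6 mutants were below the control median of *Gins2*, within the range of the controls. *Pcna*, with *Ccne2* and *Mcm6*, was among the 3 replication genes with a log2 fold change above 0, at 28.6 to 37.9 CPM in controls (median 33.6) and 32.7 to 40.8 CPM in mutants (median 37.1). *Pcna* had a log2 fold change of 0.13 (SE 0.08, edgeR adjusted p = 0.693), and 5 of 6 mutants were above the control median. Of 2 annotated pseudogenes named after *Pcna*, 1 has a row of its own in the count table. *Cdc6* had the lowest CPM of the 40 genes, at 1.52 to 2.99 CPM in controls (median 2.31) and 1.64 to 2.35 CPM in mutants (median 1.99). Its log2 fold change of -0.21 (SE 0.17, edgeR adjusted p = 0.796) was little larger than its error. *Cdt1* had a log2 fold change of -0.08, with 4.24 to 5.75 CPM in controls and 4.43 to 5.18 CPM in mutants.

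*Rrm2*, the regulated subunit of ribonucleotide reductase, and *Tyms*, thymidylate synthase, supply the nucleotides. *Rrm2* lay between 7.70 and 9.25 CPM in controls (median 8.26) and between 6.19 and 8.31 CPM in mutants (median 7.65), with 1 mutant above the control median. Its log2 fold change was -0.17 (SE 0.10, edgeR adjusted p = 0.591). For *Tyms* the log2 fold change was -0.07 (SE 0.11, edgeR adjusted p = 0.911). Taking the 14 replication genes as a group, 11 (78.6%) had a log2 fold change below 0, against 49.1% of all genes, and the median was -0.11. Of the 14, 2 (14.3%), both lower in mutants, had an edgeR unadjusted p under 0.05. That share was 10.6% over all genes in either direction and 4.04% for lower genes. Among 45 other DNA replication genes, 44.4% were below 0, none reached that threshold and the median was 0.01.

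The cyclins turn on the kinases that drive each step. *Ccne1*, cyclin E1 at the start of S phase (chr7:38097984-38107534, minus strand), lay between 3.51 and 4.37 CPM in controls, with a median of 3.75 CPM. In mutants it lay between 2.94 and 3.67 CPM, with a median of 3.14 CPM. As for *Mcm2*, 5 mutants lay below the lowest control, and mutant 3 was the exception. The level of *Ccne1* in mutants was 0.843 of that in controls (95% interval 0.721 to 0.985), a log2 fold change of -0.25 (SE 0.11). Its unadjusted p was 0.0333, its exact two-sided permutation p was 0.00649, and its edgeR adjusted p was 0.401. *Ccne2*, the other cyclin E, lay between 2.99 and 5.24 CPM in controls (median 4.94) and between 3.59 and 7.18 CPM in mutants (median 5.35). The log2 fold change of *Ccne2* was 0.22 (SE 0.17, edgeR adjusted p = 0.770), and 609 of its exonic bases overlap *Ints8* on the opposite strand. The point estimates of both cyclin E genes therefore had opposite signs, and the difference between them was not tested. *Cdk1*, the kinase of mitotic entry, had a log2 fold change of -0.06 (SE 0.10, edgeR adjusted p = 0.931). Its partners *Ccna2* (0.03), *Ccnb1* (0.05) and *Ccnb2* (-0.05) were as near to 0.

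*Mki67* encodes the Ki-67 protein that coats mitotic chromosomes and marks dividing cells in stains, and *Top2a* encodes the topoisomerase that untangles the copied DNA. *Mki67* lay between 25.8 and 34.2 CPM in controls (median 31.8) and between 25.9 and 36.9 CPM in mutants (median 28.9). *Mki67* had a log2 fold change of -0.06 (SE 0.09, edgeR adjusted p = 0.906), with an interval of the mutant level from 0.833 to 1.099 of the control level. *Top2a* lay between 21.6 and 29.0 CPM in controls (median 27.3) and between 20.98 and 29.8 CPM in mutants (median 26.3). The log2 fold change was -0.04 (SE 0.09, edgeR adjusted p = 0.950), with an interval from 0.851 to 1.12 of the control level. The *Mki67* values of the mutants spread over nearly the whole range of the controls and past its upper end. For *Top2a* the mutants spread past both ends of the control range.

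The kinesins and cytokinesis genes build the spindle and divide the cell. *Kif23*, a motor of the central spindle, had the smallest p of the 26 mitosis genes. It lay between 6.42 and 8.01 CPM in controls (median 7.33) and between 6.02 and 7.20 CPM in mutants (median 6.65). Each mutant lay below each control other than control 1. The log2 fold change of *Kif23* was -0.15 (SE 0.09), its unadjusted p was 0.0910, its exact two-sided permutation p was 0.0325, and its edgeR adjusted p was 0.590. *Anln*, which encodes the contractile ring protein anillin, had a log2 fold change of 0.09 (SE 0.10, edgeR adjusted p = 0.857). For *Kif20a*, another central spindle kinesin, it was -0.09 (SE 0.10, edgeR adjusted p = 0.864). *Kif11*, *Kif4*, *Tpx2*, *Nusap1* and *Prc1*, which move or bundle spindle microtubules, had log2 fold changes between -0.07 (*Tpx2*) and 0.03 (*Kif11*).

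Among the kinases of mitosis and its checkpoint, the widest difference was that of *Aurkb*, aurora kinase B, at 2.60 to 4.63 CPM in controls and 3.39 to 5.001 CPM in mutants. Its log2 fold change was 0.15 (SE 0.15, edgeR adjusted p = 0.857). *Ttk*, the kinase that starts the spindle checkpoint, had a log2 fold change of -0.12 (SE 0.15, edgeR adjusted p = 0.885), and for *Bub1b*, a checkpoint protein at the kinetochore, it was -0.07 (SE 0.11, edgeR adjusted p = 0.921). *Aurka*, *Plk1* and *Bub1* lay between -0.07 and 0.01. *Mad2l1*, which holds back anaphase, and *Cdc20*, the activator it binds, had log2 fold changes of 0.05 and -0.03. At the kinetochore and chromosomal passenger complex, the log2 fold change was -0.11 (SE 0.10, edgeR adjusted p = 0.826) for the motor *Cenpe*, 0.08 for *Birc5*, which encodes survivin, and 0.00366 for *Cenpf*. *Foxm1*, the transcription factor of the mitotic genes, had a log2 fold change of -0.08 (SE 0.09, edgeR adjusted p = 0.867), with all 6 mutants below the control median. Of the 26 mitosis genes, 15 (57.7%) were below 0, against 49.1% of all genes. None of the 26 had an edgeR unadjusted p under 0.05, against 10.6% of all genes, and the median was -0.03. Without control 1, mutant 3 or control 5 the median was -0.09, -0.05 or -0.02, and it was above 0 without control 4 (0.00864) or mutant 4 (0.01).

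Per kilobase of exon, so that genes of different length can be compared, *Pcna* was the most abundant of the 40 in controls at 13.95 ± 1.67 CPM per kb (SD, n = 6). *Mcm4* followed with 8.18, *Mcm7* with 7.84, *Mcm3* with 5.60, *Cdc20* with 5.09 and *Mcm6* with 4.80 CPM per kb. *Mki67* stood at 3.10 and *Top2a* at 2.96 CPM per kb, and *Ttk* (0.578) and *Cdc6* (0.441) were last. The range of levels per kb thus spanned 31.7-fold. Of the 39 pairs of neighbours in this order, the control ranges were apart in 2, *Pcna* above *Mcm4* and *Mcm7* above *Mcm3*. The control ranges of the other neighbours overlapped, and neighbours were not compared within each mouse. The order in mutants was nearly the same, with a rank correlation of 0.990 across the 40 genes. Exon lengths are those of GENCODE M21 with every annotated exon of a gene joined, which lowers the level of genes with long rare transcripts.

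The genes varied together from mouse to mouse in both genotypes. Of the 40 genes, 33 were above the mean of their genotype in control 4 and 36 in mutant 3, but 5 in control 1 and 4 in mutant 4. In the same mice, between 48.6% (mutant 3) and 52.9% (mutant 4) of all tested genes were above that mean. Control 1 had the lowest level of the 12 mice in 14 of the 40 genes, among them *Aurka*, *Aurkb* and *Plk1*. Over the 780 pairs of the 40 genes, the median correlation of their deviations from the genotype means was 0.37 (Pearson, 12 mice), and 0.001 over all pairs of tested genes. The median was 0.48 for pairs of mitosis genes, of which 90.2% were above 0, and 0.26 for pairs of replication genes. *Cdk1* (mean correlation 0.51) and *Top2a* (0.51) followed the other members most closely, whereas *Pcna* (0.06), *Mcm4* (0.06), *Cenpe* (-0.04) and *Ccne2* (-0.10) did not. These points share the 12 libraries and their scaling, and the correlations are given as a description.

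**Figure D4:**
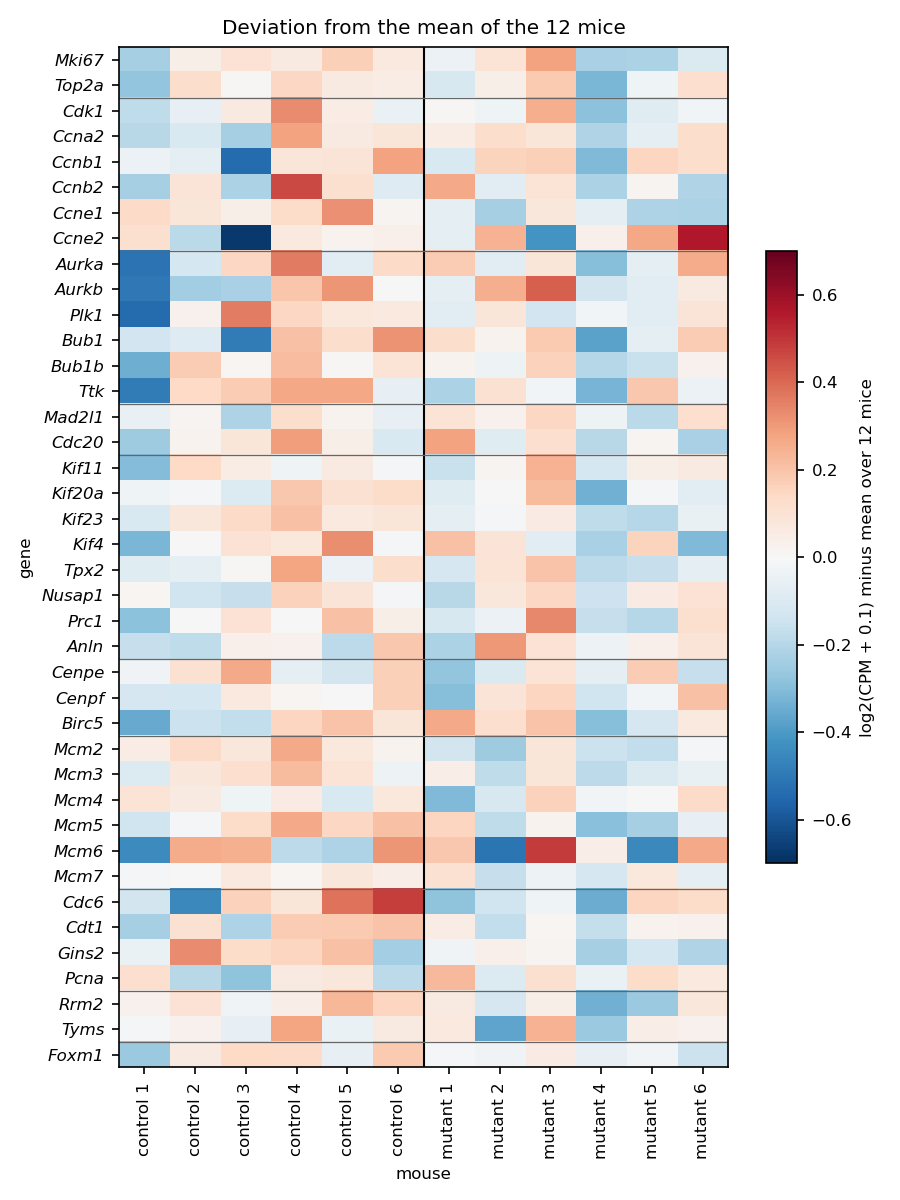
Deviation of each gene (rows) from its mean over the 12 mice (columns, log2 scale, red higher and blue lower), with a black line between controls and mutants. Control 1 and mutant 4 are blue in most genes and control 4 and mutant 3 are red, in both genotypes.

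Summed over the 40 genes, controls had 449 ± 24.5 CPM and mutants 437 ± 31.1 CPM (mean ± SD, n = 6 per genotype). The lowest, median and highest sums were 406.8, 453 and 481 CPM in controls and 396, 432 and 488 CPM in mutants, so that the ranges nearly coincided. The difference of -12.6 CPM was smaller than either SD, and it was -22.9 CPM without control 1, -22.7 CPM without mutant 3, -6.34 CPM without control 4 and -4.42 CPM without mutant 4. The 14 replication genes gave means of 220 ± 6.39 CPM for controls and 212 ± 16.5 CPM for mutants (SD over 6 mice). The 26 mitosis genes gave 229 ± 18.6 and 225 ± 19.3 CPM (SD over 6 mice).

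Further genes of the same processes were read from the same fit. Of 49 other mitosis genes tested, such as those of condensin and the outer kinetochore, none was called by edgeR or had an unadjusted p under 0.05, and the median log2 fold change was 0.02. The smallest p-values belonged to *Ncapd2*, a condensin subunit (-0.18, SE 0.09), *Bub3*, a checkpoint protein (-0.13, SE 0.07), and *Zwint*, a kinetochore protein (0.13, SE 0.07). Of 45 other DNA replication genes, none was called by edgeR or had an unadjusted p under 0.05, and the median was 0.01. Here the smallest p-values belonged to *Esco2*, a cohesin acetyltransferase (0.26, SE 0.14), *Pole*, the leading strand polymerase (-0.17, SE 0.10), and *Rpa3*, which binds single strands (0.12, SE 0.07). Of 17 transcription regulators of the cell cycle, none was called, and *E2f4*, an E2F factor of resting cells, had an unadjusted p of 0.0278 with a log2 fold change of -0.16 (SE 0.07, edgeR adjusted p = 0.372). *Rb1* (0.19, SE 0.10) and *E2f2* (-0.16, SE 0.12) followed.

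Markers of other cell types were summed in the same libraries. Over all 18459 genes, 1204 were higher in mutants and 745 (4.04%) lower at an edgeR unadjusted p under 0.05, and 35 (0.190%) were called. Schwann cell markers summed to between 492 and 1503 CPM in controls and between 1251 and 6352 CPM in mutants. Of these, 10 of 11 were higher at an unadjusted p under 0.05, all but *Sox10* (log2 fold change 0.05), and none was called by edgeR. Neuron markers summed to between 114 and 269 CPM in controls and between 156 and 1266 CPM in mutants. Of these, 9 of 10 were higher at that threshold, all but *Syt1* (log2 fold change -0.21), and none was called. Supporting cell markers, a list that includes *Jag1*, summed to between 881 and 998 CPM in controls and between 712 and 802 CPM in mutants, with 4 of 8 lower at that threshold (*Jag1*, *Lfng*, *Sox2* and *S100a1*) and 2 of them, *Jag1* and *Lfng*, called. Macrophage markers summed to between 303 and 374 CPM in controls and between 245 and 325 CPM in mutants, with 5 of 9 lower at an unadjusted p under 0.05 and none called. For mesenchyme the sums were 9720 to 11865 and 9129 to 10807 CPM, and for endothelial cells 644 to 691 and 576 to 669 CPM. Erythroid markers summed to 308 to 954 CPM in controls and 142 to 549 CPM in mutants, markers of the stria vascularis to 1981 to 2616 and 1852 to 2568 CPM, and hair cell markers to 418 to 477 and 358 to 510 CPM. At an unadjusted p under 0.05, 1 of 9 mesenchyme, 1 of 8 endothelial and 1 of 6 erythroid markers were lower in mutants. No stria vascularis or hair cell marker reached that threshold, and none of these 5 lists held a called gene. The part of these differences in the levels of the 40 genes was not tested.

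**Figure D5:**
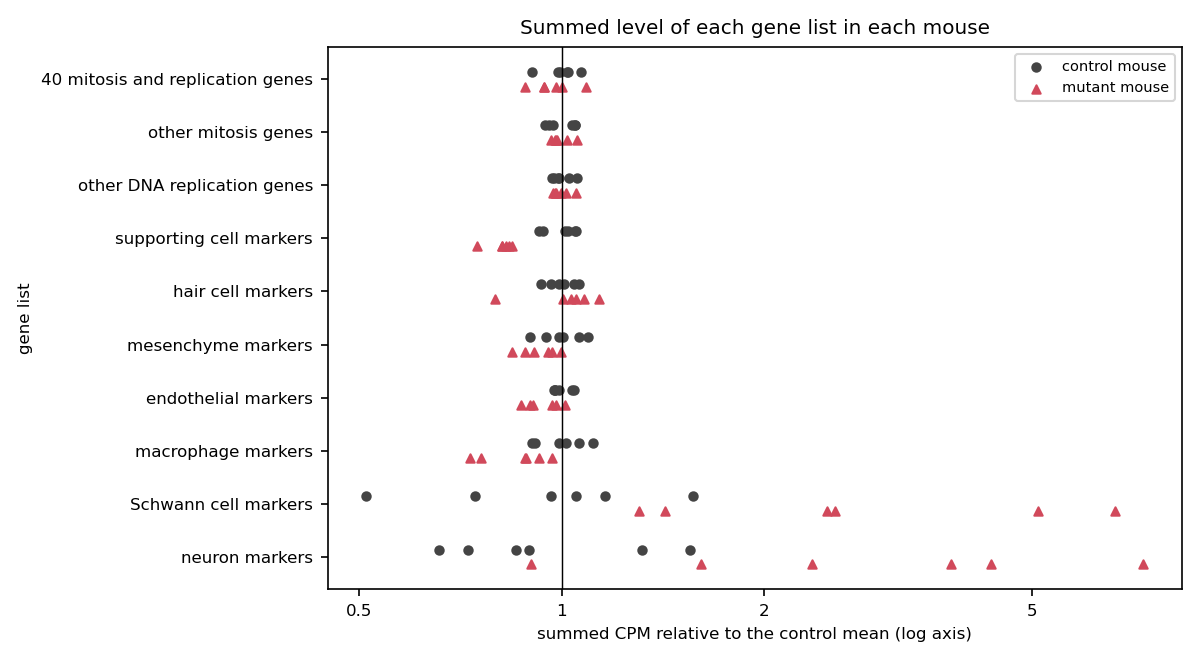
Summed CPM of each gene list in each mouse relative to the mean of the controls (horizontal log axis), with controls as circles and mutants as triangles. The mitosis and replication lists lie close to 1 in both genotypes, whereas Schwann cell and neuron markers extend to over 6 times the control mean in mutants.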

How the data were processed

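Cochlear RNA of 6 mutants and 6 controls at P6 was measured by RNA-seq with single-end reads, per the labels. The values the authors deposited are whole-number counts for each symbol and mouse, without normalization or pooling. The submitters' processing notes name Trimmomatic 0.32, STAR 2.4.2a, HTSeq 0.9.1, DESeq2 1.10.1 and the build GRCm38.p4. The annotation and strand setting of the counting are not given in the sources used here. The authors' deposited table of their own comparison (mean, fold change, p-value) was not used.

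Genotypes and mouse numbers were taken from the labels. Genes were kept where the mean over 12 libraries reached 5 counts. Genotypes were compared with edgeR 4.0.16 in R 4.3.3 (TMM, glmQLFit with robust = TRUE, glmQLFTest, no covariates), and p-values were adjusted over all tested genes by the Benjamini-Hochberg method. The SE is the size of the log2 fold change divided by the square root of F. Single genes were also compared by exact two-sided permutation of log2(CPM + 0.1) over the 924 divisions of the mice. The scripts were tested on simulated data. Alternatives were DESeq2 1.42.0 without a prior, voom of limma 3.58.1, upper-quartile or RLE scaling, dropping the filter or raising it to 20, non-robust fits, a block for the mouse number, a pseudocount of 1 and leaving out each mouse.

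Total counts were 28498549 to 36134983 per mouse. Same-genotype libraries differed by 14.4 to 76.6 in chi-square per degree of freedom (30 pairs); for genes with few reads, such as *Cdc6* and *Ccne1*, counting error also limits the precision. Gene positions and exons came from GENCODE M21 (GRCm38), which held 92.4% of the symbols, and promoters from RefSeq. Promoters of *Ccna2*, *Ccne2*, *Aurkb*, *Kif20a*, *Tpx2*, *Mcm4*, *Gins2* and *Foxm1* were not analysed here. The members, the further gene lists and the markers were chosen with earlier results of these data known. Statistics are given for up to 3 genes with the smallest p of each role, per-mouse ranges for the 10 smallest p-values and *Mki67*, *Top2a* and *Pcna*, and the 3 smallest p-values of each further list; a gene named outside this rule was chosen after its values were seen.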

Additional observations from a re-analysis of the deposited data

Results flagged for a closer look

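In 4 of 82 groups of 6 values examined, 1 mouse stood apart from the other 5 of its genotype by Dixon's test at the 95% level, which chance alone gives in about 1 of 20 groups. All 4 were controls. *Mki67* was at 25.8 CPM in control 1, against 31.3 to 34.2 CPM in the other controls. *Top2a* was at 21.6 CPM in control 1, against 26.3 to 29.0 CPM in the others. Control 1 was also the mouse in which 35 of the 40 genes were below the mean of the controls. *Ccne1* was at 4.37 CPM in control 5, against 3.51 to 3.81 CPM, and without control 5 its edgeR unadjusted p was no longer under 0.05. The same held for *Ccne1* without mutant 2, mutant 5 or mutant 6, without a filter and with the replicate block. *Tyms* was at 12.1 CPM in control 4, against 9.56 to 10.4 CPM in the other controls.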

How the results depend on the processing

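None of the 40 genes was called under any of the 20 alternatives, and the smallest adjusted p of a gene was 0.10 (*Mcm2*, DESeq2). The number of all genes called was 35 in the reported fit, 57 without a filter, 131 with the replicate block, 619 with DESeq2, 19 with limma-voom and 14 to 356 when 1 mouse was left out. At an edgeR unadjusted p under 0.05 there was 1 of the 40 genes without a filter and 1 with the replicate block. The shares over all genes in these fits were 8.39% and 9.13%. When 1 mouse was left out there were 1 to 4 of the 40, against 8.39% to 14.2% of all genes. The groups were then apart in 0 to 2 of the 40, against 1.11% to 2.45% of all genes. Mice with the same number in both genotypes share only that number: the correlations of their deviations from the group means were -0.19 to 0.28, and with the block none of the 40 genes was called. The median of the mitosis genes was above 0 without mutant 4 or control 4 and below 0 under the other alternatives. Among 800 refits of single genes, 751 kept their direction and 49 turned it, in 16 genes whose log2 fold change was at most 0.07 in size in the reported fit. *Cenpf* turned to -0.0029 without a filter, -0.0020 with the replicate block and -0.0034 with limma-voom. When 1 mouse was left out, the log2 fold changes that turned ranged over both signs for *Top2a* (-0.097 to 0.017), *Cdk1* (-0.12 to 0.012), *Ccna2* (-0.014 to 0.092), *Ccnb1* (-0.035 to 0.12), *Ccnb2* (-0.12 to 0.049), *Aurka* (-0.080 to 0.095), *Plk1* (-0.17 to 0.0037), *Bub1* (-0.071 to 0.084), *Cdc20* (-0.093 to 0.032), *Kif11* (-0.030 to 0.062), *Kif4* (-0.12 to 0.012), *Nusap1* (-0.013 to 0.055), *Prc1* (-0.096 to 0.024), *Cenpf* (-0.039 to 0.058), *Mcm4* (-0.081 to 0.010) and *Mcm6* (-0.083 to 0.12). The cause was not tested. The widest intervals were those of *Mcm6*, *Cdc6* and *Ccne2*, and the size of difference that could be detected was not computed.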

Other observations

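*Mcm6* had the widest spread of the 40 genes between mice of a genotype, with an SD of 0.36 on the log2 scale, and it was looked at after its values were seen. The gene lies on chr1:128331590-128359664 (minus strand). It ranged from 16.1 to 27.3 CPM in controls (median 22.8) and from 15.4 to 31.0 CPM in mutants (median 24.0), while its partners in the helicase ring, *Mcm2*, *Mcm3*, *Mcm4*, *Mcm5* and *Mcm7*, varied less. The mice were low or high in both genotypes. Genes were ranked by the size of the correlation of deviations from the genotype means over the 12 mice. The gene most like *Mcm6* was *D2hgdh*, a mitochondrial dehydrogenase gene at chr1:93824909-93852348 (r = 0.93). *Gm7889* (chr1:93975353-93985816, r = -0.90) and *Rp1* (chr1:3999557-4409241, r = -0.90) followed. Both of these had low levels over the 12 mice, from 0.226 to 0.698 CPM for *Gm7889* and from 0.290 to 0.684 CPM for *Rp1*. *D2hgdh* lay between 5.46 and 6.32 CPM in 5 mice, 3 controls and 2 mutants, and between 11.003 and 13.2 CPM in the other 7, with nothing in between. The 5 mice with low *D2hgdh* were the 5 with the lowest *Mcm6*, at up to 19.4 CPM, and the other 7 had at least 22.8 CPM. Of the 20 genes most like *Mcm6*, 7 lie on chromosome 1, which holds 6.66% of the tested genes, and none is one of the other 39 genes. Among the other 39 genes, at most 4 of the 20 most alike genes lay on the gene's own chromosome (*Ttk* and *Prc1*). No p-value is given, since the genes were picked for this likeness.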
